A study of Mus musculus with 2 samples.

Results

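Histones package DNA into nucleosomes, and their genes fall into a replication-dependent set, whose symbols start with Hist, and a set of variants, here the H2af, H3f3 and H1f0 genes. All symbols with these starts were taken from a table of nuclear RNA recovered by immunoprecipitation, and the rows of each symbol were summed. This gave 78 histone genes of 23924 gene symbols, 65 of them replication-dependent and 13 variants. The choice used names only and no measured value.

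The RNA came from RAW 264.7 cells, a mouse macrophage line. The nucleolin precipitate, made with an antibody against nucleolin, and the IgG precipitate, the control made with rabbit IgG, gave 1 library each. Both groups came from cells depleted of mRrp6, the nuclear exosome ribonuclease that Exosc10 encodes, and stimulated with LPS (bacterial lipopolysaccharide) at 80 ng/ml for 12 h, and both were taken from nuclear extracts without the cytosol. How mRrp6 was depleted is not stated, and there is no undepleted or unstimulated group, so nothing below concerns the effect of either. The sample titled nucleoplasmic RNAs was read as the nucleolin one, on the strength of the design text and of the nucleolin symbol on its column. With 1 library per group there is no spread between replicates, so no test was made, and every difference below describes these 2 libraries.

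Replication-dependent histone messages are made in bulk during S phase. They carry no poly(A) tail and end in a stem-loop that the protein Slbp binds and that the U7 small nuclear ribonucleoprotein helps to form. Their genes lack introns as a rule and lie in clusters of near-identical copies. Variant histones such as H3.3 (from H3f3a and H3f3b), H2A.Z (from H2afz) and macroH2A (from H2afy) are made throughout the cell cycle from spliced, mostly polyadenylated messages, and can replace the bulk histones in chromatin; H2afx can give either kind of 3′ end. Nucleolin, a nucleolar RNA-binding protein, also has histone chaperone activity, and in human cells the exosome takes part in the decay of histone messages.

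In the annotation of assembly GRCm38.p6, which mm10 stands for, all 53 genes of histone cluster 1 (Hist1) lie on chromosome 13, the 8 of cluster 2 on chromosome 3 and the 3 of cluster 3 on chromosome 11. Of the 78 genes, 26 reached 0.1 FPKM in at least 1 library and are called listed here, and 52 did not. FPKM is the number of fragments per kilobase of transcript and per 1000000 mapped fragments. The 26 listed genes were 22 replication-dependent genes, 20 of them in cluster 1 and 2 in cluster 2, and 4 variants. By type, the listed replication-dependent genes were all 11 H3 genes, 9 of 19 H2B genes and 2 of 6 H1 genes, while none of 16 H2A genes and none of 13 H4 genes was listed. All 26 also reached 1 FPKM, the level set for comparison, as did 3194 of all 23924 gene symbols.

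**Figure D1:**
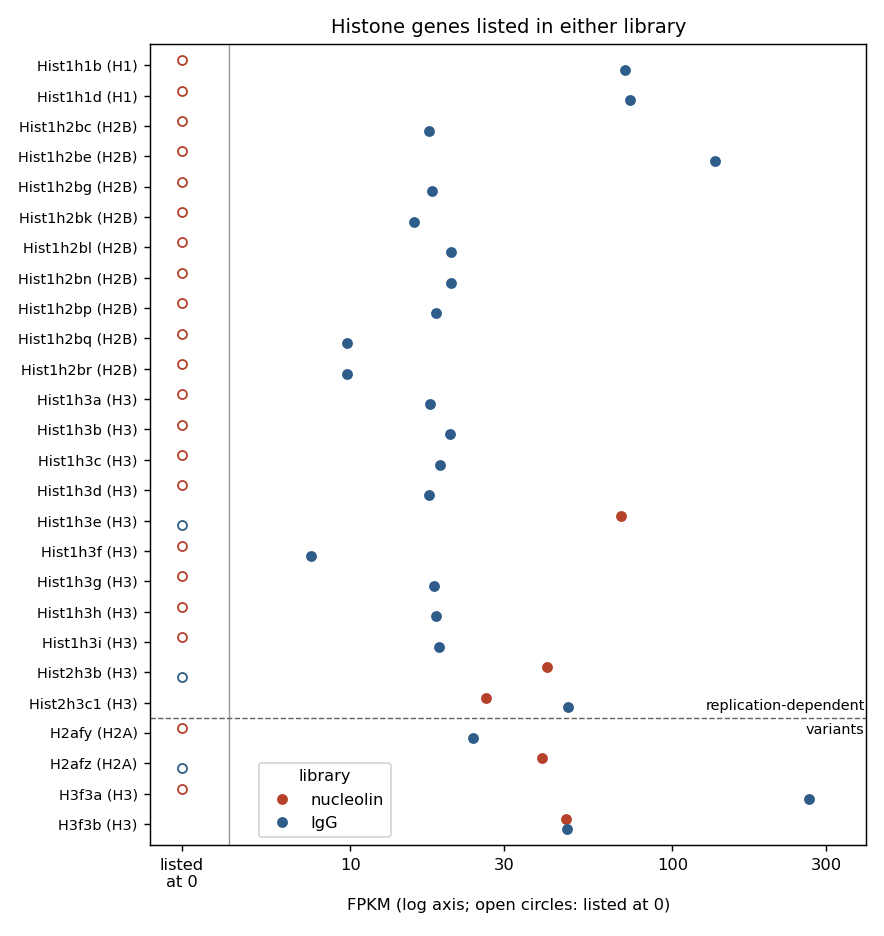
FPKM of the 26 listed histone genes (log axis), 1 point per library, nucleolin above IgG for each gene, with open circles at the left edge for values listed at 0. The dashed line parts the 22 replication-dependent genes from the 4 variants. Most replication-dependent genes have an open nucleolin point and a filled IgG point between 7.54 and 20.6 FPKM, Hist1h3e, Hist2h3b and H2afz have the reverse, and only Hist2h3c1 and H3f3b are filled in both.

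Most listed replication-dependent genes were listed in the IgG precipitate alone. Of the 22, 19 were at least 2-fold lower in the nucleolin precipitate, which is 86.4%, and 2 (9.09%) were at least 2-fold higher. The ratio used was log2((nucleolin FPKM + 1) / (IgG FPKM + 1)). Of all 3194 genes compared, 56.7% were lower and 37.8% higher, and 37.1% were listed in the nucleolin precipitate only and 46.0% in the IgG precipitate only. Over the 22 genes the log2 ratio had a median of -4.26, against -1.27 over all genes compared. The 4 listed variants were mixed, with 2 lower, 1 higher and 1 nearly equal, and a median log2 ratio of -2.33. Summed over each class, replication-dependent genes held 136 FPKM in the nucleolin precipitate and 596 FPKM in the IgG precipitate, and variants held 86.0 FPKM in the nucleolin precipitate and 337 FPKM in the IgG precipitate. The log2 ratios of these sums, -2.12 and -1.96, lay closer together than the medians over genes did.

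**Figure D2:**
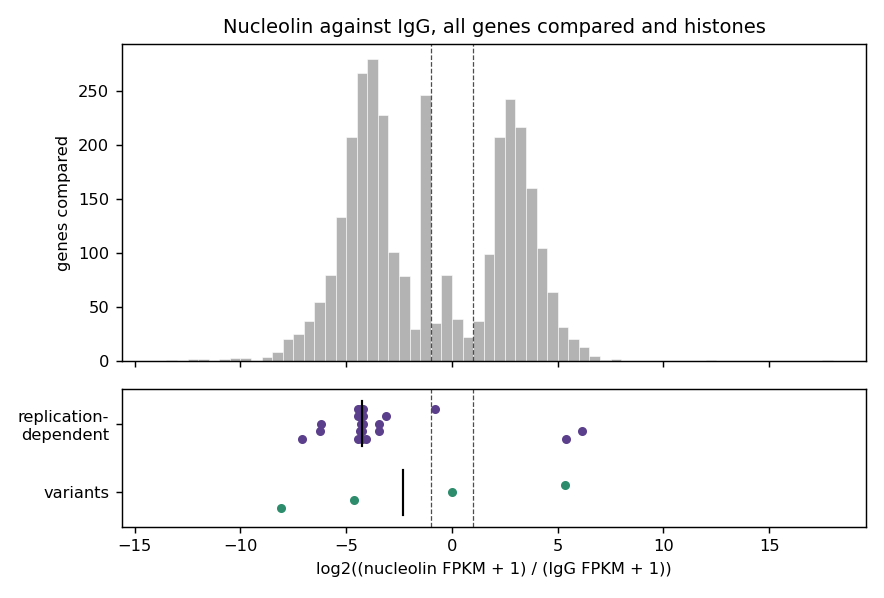
Upper panel, the number of genes compared in each bin of log2((nucleolin FPKM + 1) / (IgG FPKM + 1)); lower panel, the same ratio for each listed histone gene, with a black bar at the class median and dashed lines at 2-fold. The replication-dependent genes crowd at their median of -4.26, inside the left peak that holds genes listed only in the IgG precipitate, while the 4 variants spread from -8.06 to 5.33.

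The number of sequenced fragments behind a value sets how far it can be read, and it could be recovered for short intronless genes. In genes with 1 exon the gene span equals the transcript length, so genes with the same fragment number fall on 1 line of FPKM against length. In the nucleolin precipitate 10 genes lay within 1% of the lowest such line, against 0 and 1 genes on lines 0.9 and 1.1 times as high. In the IgG precipitate these numbers were 23 genes, against 0 and 1. The search chose a line with many genes on it and few below, so these counts describe the line and do not test it. The fit rested on 8 genes in the nucleolin precipitate and 20 in the IgG precipitate. Taking this line as 1 fragment, a fragment was worth 16.4 FPKM times kilobases in the nucleolin precipitate and 42.2 in the IgG precipitate, after a length offset of 234 bases in the nucleolin precipitate and 203 in the IgG precipitate. That puts the totals at about 60900 mapped fragments in the nucleolin precipitate and 23700 in the IgG precipitate. The ratio of the 2 worths, 0.389, was close to the most frequent ratio between the libraries, 0.394, at which 166 of 368 genes with 1 row and a value in both stood. The line was found on genes with spans of 1000 to 20000 bases, so the short histone genes had no part in it.

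**Figure D3:**
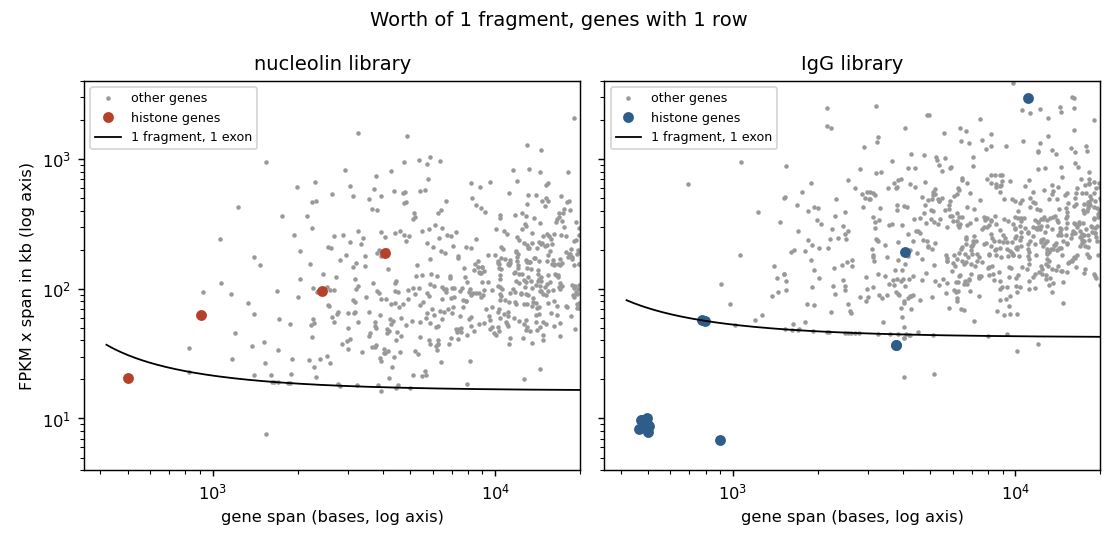
FPKM multiplied by gene span in kilobases against gene span in bases (both axes log) for genes with 1 row, nucleolin left and IgG right; the curve is the fitted line of 1 fragment on a gene with 1 exon. Histone genes are the large points. In the nucleolin precipitate Hist1h3e lies above the curve and Hist2h3b below, and in the IgG precipitate the H1 genes Hist1h1b and Hist1h1d sit on it and most H2B and H3 genes lie far below it.

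Read this way, most of the replication-dependent genes listed in the IgG precipitate each held a small part of a fragment. Among the 1179 genes with 1 row and a value above 0 in the nucleolin precipitate, 4 came to between 0.01 and 0.9 fragment, and 1 of these 4 was a histone gene. Among the 1413 such genes of the IgG precipitate 20 did, and 14 of these 20 were histone genes. These numbers used the gene span, which overstates transcript length in spliced genes. Few spliced genes could come under 0.9 fragment this way, so the counts do not compare histone genes with them. Over the 59 replication-dependent genes with spans under 1000 bases, the values came to 4.21 fragments in the nucleolin precipitate and 4.02 in the IgG precipitate. Rounded to 4 fragments in each and set against the totals, the nucleolin-to-IgG ratio was 0.389. Its exact (Clopper-Pearson) 95% interval ran from 0.0724 to 2.09, so no difference was detectable over these 59 genes at this depth. The listed genes left out of this sum for their longer spans are Hist1h2bc, Hist1h2be, Hist1h2bp, Hist1h2bq and Hist1h2br. All of these were listed in the IgG precipitate only, Hist1h2be at 136 FPKM, so the sum leaves out values from the IgG side alone. The intervals and limits from fragment numbers cover counting error only, and they rest on the recovered line, since no source states the depth. The 19 lower genes are therefore not 19 separate measurements: apart from Hist1h1b and Hist1h1d, those with a short span each came to well under 1 fragment. How far transcripts of a type match over their full length was not computed here.

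H3 genes, which encode the bulk H3 proteins H3.1 and H3.2, were the only replication-dependent genes listed in the nucleolin precipitate. Hist1h3e had 69.3 FPKM in the nucleolin precipitate and was listed at 0 in the IgG precipitate. Hist2h3b, in cluster 2, had 40.8 FPKM in the nucleolin precipitate and was listed at 0 in the IgG precipitate. Hist2h3c1, the replication-dependent gene listed in both, had 26.4 FPKM in the nucleolin precipitate and 47.3 FPKM in the IgG precipitate, a log2 ratio of -0.82. Its sign changed with the scaling: the log2 ratio was 0.45 once ratios were centred on the all-gene median and 0.49 with 1 fragment given equal worth in both libraries. In fragments, Hist1h3e came to 2.86 in the nucleolin precipitate, Hist2h3b to 0.665 there, and Hist2h3c1 to 0.690 there against 0.516 in the IgG precipitate. Hist2h3c1 has 2 rows for copies of the same transcript, and 1 of them held nearly all of it, 26.0 FPKM against 0.338 FPKM for the other in the nucleolin precipitate and 47.1 against 0.232 FPKM in the IgG precipitate.

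The remaining 8 H3 genes, Hist1h3a, Hist1h3b, Hist1h3c, Hist1h3d, Hist1h3f, Hist1h3g, Hist1h3h and Hist1h3i, were listed at 0 in the nucleolin precipitate and at 7.54 to 20.4 FPKM in the IgG precipitate, with a median of 18.4 FPKM. Hist1h3f had the lowest value, 7.54 FPKM, and the longest span of the 8, 903 bases. Once length was taken out the 8 genes were alike: 7 came to 0.125 fragment and Hist1h3b to 0.142 fragment, and the 8 together came to 1.02 fragments. A single fragment divided evenly over 8 genes gives 0.125 each. In sum these genes thus held the worth of 1 fragment, although they count as 8 genes at least 2-fold lower in the nucleolin precipitate.

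Over all 11 H3 genes more were lower than higher, but the fragments behind them showed no difference at this depth. By gene, 8 were lower, 2 higher and 1 within 2-fold in the nucleolin precipitate. Of all genes compared, 56.7% were lower and 37.8% higher. By fragment, the H3 genes came to 4.21 in the nucleolin precipitate and 1.53 in the IgG precipitate, or 69.2 per 1000000 mapped fragments in the nucleolin precipitate and 64.8 in the IgG precipitate. The ratio of the rounded numbers, 4 and 2 fragments, was 0.777 after scaling to the totals, with an exact 95% interval from 0.111 to 8.59. The direction turned with the rounding: before it the nucleolin rate was the higher, and after it the lower. The interval treats the rounded sums as counts of whole fragments. H3 genes that the nucleolin precipitate left at 0 and H3 genes that the IgG precipitate left at 0 encode the same or nearly the same proteins. How alike their transcripts are was not computed here, and which of them a fragment was given to is uncertain.

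**Figure D4:**
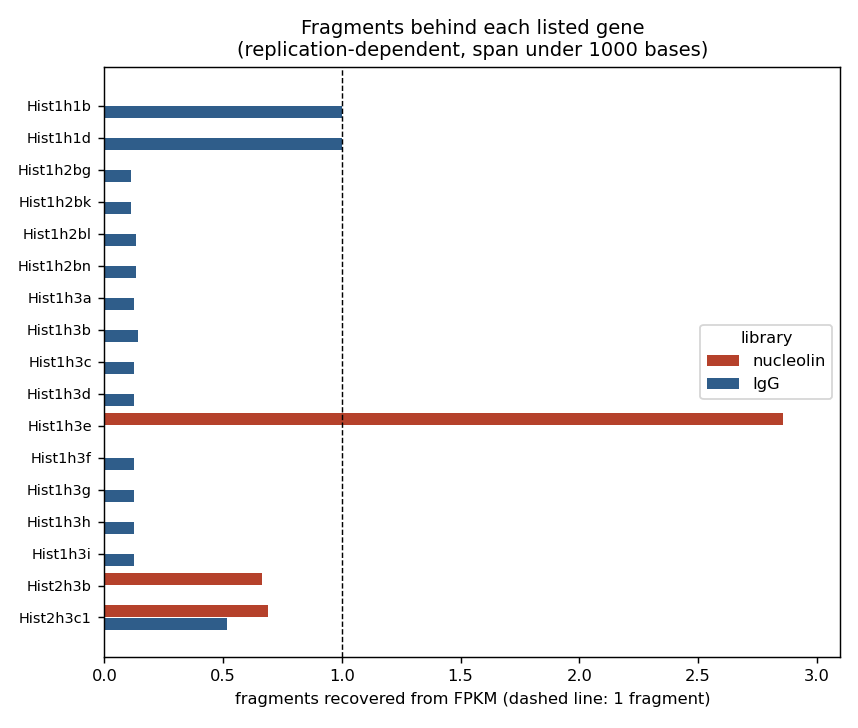
Fragments recovered from FPKM and gene span for the 17 listed replication-dependent genes with spans under 1000 bases, nucleolin bar above IgG bar for each gene; the dashed line marks 1 fragment. Hist1h3e reaches 2.86 in the nucleolin precipitate, both H1 genes reach 0.999 in the IgG precipitate, and the H2B genes and the other cluster 1 H3 genes stay between 0.111 and 0.142 in the IgG precipitate.

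All 9 listed H2B genes were listed in the IgG precipitate only, against 46.0% of all genes compared. Hist1h2be was listed at 0 in the nucleolin precipitate and had the highest value of the 9, 136 FPKM, in the IgG precipitate. The other 8, Hist1h2bc, Hist1h2bg, Hist1h2bk, Hist1h2bl, Hist1h2bn, Hist1h2bp, Hist1h2bq and Hist1h2br, were also listed at 0 in the nucleolin precipitate and ranged from 9.79 to 20.6 FPKM in the IgG precipitate. Hist1h2bg and Hist1h2bk each came to 0.111 fragment, and Hist1h2bl and Hist1h2bn to 0.131 and 0.134 fragment. These numbers take the gene span as the transcript length. Hist1h2bl and Hist1h2bn had the same FPKM, so their numbers differ only through their spans, 473 and 478 bases. Hist1h2bc, Hist1h2be, Hist1h2bp, Hist1h2bq and Hist1h2br have spans from 3788 to 37455 bases, so their transcript lengths and exact fragments are not known here. A single fragment gives 9.79 FPKM on a transcript with 4316 bases beyond the length offset. Hist1h2bq and Hist1h2br span only 3788 bases, so each held less than 1 fragment.

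In 3 of these H2B genes a second transcript form carried the value. Hist1h2be had 136 FPKM in the IgG precipitate on 1 of its 3 rows and 3e-06 FPKM on each of the others, Hist1h2bc had 17.6 FPKM on 1 row and 0.00169 FPKM on the other, and Hist1h2bp had 18.5 FPKM on the row described as isoform 2 and 0.00683 FPKM on the other. The spans of these genes, 37455, 8282 and 14079 bases, are far longer than the 464 to 500 bases of Hist1h2bg, Hist1h2bk, Hist1h2bl and Hist1h2bn. A Hist name therefore does not by itself mark a short intronless message in these rows.

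Identical values to the last deposited digit occurred in 2 pairs of H2B genes. Hist1h2bq and Hist1h2br both had 9.79 FPKM in the IgG precipitate, and Hist1h2bl and Hist1h2bn both had 20.6 FPKM. The sequence around the start of transcription was compared within each pair. The transcripts were not compared over their full length, and the cause of the equal values was not tested. For Hist1h2bq and Hist1h2br all 250 bases before the start and the 50 bases after it were the same, and the genes stand on opposite strands of chromosome 13, at 21806412 to 21810199 and at 21833743 to 21837530. For Hist1h2bl (21715711 to 21716183) and Hist1h2bn (21754076 to 21754553) 171 of the 250 bases before the start matched in an alignment with gaps, 64.5% of its columns. Over the 50 bases from the start 30 matched, 51.7% of the columns of that alignment. Hist1h2bl and Hist1h2bn carried equal values while these sequences before and after the start differ. The 150 bases before the start, from RefSeq's GRCm38.p6, are given 5′ to 3′. The CCAAT box (CCAAT, or ATTGG on the other strand) is in capitals. They show the pair with the same letters here and the pair with different letters.
Hist1h2bq, chr13:21810200-21810349, minus strand (Hist1h2br, chr13:21833593-21833742, plus strand, has the same letters): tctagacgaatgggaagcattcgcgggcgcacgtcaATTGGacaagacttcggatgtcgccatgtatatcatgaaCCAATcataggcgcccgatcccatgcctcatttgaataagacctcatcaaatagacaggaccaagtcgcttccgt
Hist1h2bl, chr13:21716184-21716333, minus strand: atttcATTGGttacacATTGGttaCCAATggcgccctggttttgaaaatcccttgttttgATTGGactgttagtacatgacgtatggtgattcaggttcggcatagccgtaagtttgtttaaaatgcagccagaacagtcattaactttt
Hist1h2bn, chr13:21753926-21754075, plus strand: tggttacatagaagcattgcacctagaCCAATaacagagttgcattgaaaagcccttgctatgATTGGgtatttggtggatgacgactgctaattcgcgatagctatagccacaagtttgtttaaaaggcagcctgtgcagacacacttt

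The CCAAT box and the octamer are elements known from H2B promoters, though not from these alone. A promoter window was found for 70 of the 78 histone genes, and the 250 bases before the start were searched on both strands. CCAAT was present in all 17 windows of replication-dependent H2B genes (100%), all 16 of H2A genes and all 6 of H1 genes, in 8 of 9 of H3 genes, in 3 of 12 of H4 genes and in 7 of 11 of variants, against 33.8% of all 32851 windows. The octamer ATTTGCAT was present in 7 of 17 H2B windows and 7 of 16 H2A windows. It was in none of the replication-dependent H1, H3 and H4 windows, in 1 of 11 variant windows and in 1.60% of all windows. TATAAA was present in 8 of 17 H2B, 7 of 16 H2A, 4 of 9 H3, 6 of 12 H4 and 4 of 6 H1 windows, in 1 of 11 variant windows and in 12.4% of all windows. Among replication-dependent windows the octamer was in 3 of 20 of listed genes and 11 of 40 of genes listed at 0 in both libraries. CCAAT was in 19 of 20 and 31 of 40 of these windows, and TATAAA in 10 of 20 and 19 of 40. All H3 genes and no H2A or H4 gene were listed, so these splits cannot be told apart from histone type. These matches describe the letters in the windows and not the binding of any factor.

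H1 genes encode the linker histones that bind DNA between nucleosomes. Hist1h1b and Hist1h1d were listed at 0 in the nucleolin precipitate and had 71.4 and 73.7 FPKM in the IgG precipitate. Each came to 0.999 fragment, so these values are those of 1 fragment per gene, and they were the only replication-dependent genes with spans under 1000 bases at a whole fragment in the IgG precipitate. Hist1h1b lies on chromosome 13 from 21779832 to 21780625 and Hist1h1d from 23555032 to 23555807. In the nucleolin precipitate 3 fragments, the number that a count of 0 allows, would have come to 88.0 FPKM for Hist1h1b and 90.9 FPKM for Hist1h1d, which is above both IgG values.

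H2A and H4 genes, whose proteins complete the nucleosome core with H2B and H3, were listed at 0 in both libraries, 16 H2A and 13 H4 replication-dependent genes in all. Their spans run from 448 to 596 bases for H2A and from 375 to 455 bases for H4. At this length 3 fragments would have come to a median of 182 FPKM per H2A gene in the nucleolin precipitate and 420 FPKM in the IgG precipitate, and to 287 FPKM per H4 gene in the nucleolin precipitate and 625 FPKM in the IgG precipitate. The levels of the 8 H3 genes listed in the IgG precipitate alone lie under these limits. Among other protein-coding genes with 1 row, none of 9 with spans from 350 to under 460 bases was listed in either library. None of 45 with spans from 460 to under 600 bases was listed either. Some histone genes of like length were listed, namely H3 genes of 480 to 504 bases and Hist1h2bg, Hist1h2bk, Hist1h2bl and Hist1h2bn, of 464 to 500 bases. The part of length in the values at 0 was not tested. The other 10 H2B genes and 4 H1 genes were likewise listed at 0 in both, as were all 6 histone genes that the name rule leaves out, Cenpa, H1fx, H1fnt, H1foo, Hils1 and H2bfm.

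Among the variants, the H3.3 genes carried most of the level. H3f3b had 46.7 FPKM in the nucleolin precipitate and 47.2 FPKM in the IgG precipitate, an FPKM ratio of 0.989. Since a fragment is worth less FPKM in the deeper nucleolin precipitate, this equals 2.51 times the ratio of equal fragments, and the smallest whole numbers that give it are 5 nucleolin fragments to 2 IgG fragments, with an exact 95% interval of the FPKM ratio from 0.161 to 10.3. H3f3a, which encodes the same H3.3 protein, was listed at 0 in the nucleolin precipitate and had 266 FPKM in the IgG precipitate, the highest value of any histone gene. A single fragment would give 266 FPKM only on a transcript with 159 bases beyond the length offset, shorter than an H3 message with its coding sequence, so more than 1 fragment lay behind it. The log2 ratios of the sister genes of H3.3 were -0.02 for H3f3b, which was nearly equal in both libraries, and -8.06 for H3f3a. Centred on the median of all genes, H3f3b stood at 1.25, and at 1.31 with 1 fragment given equal worth. Both have pseudogene copies elsewhere in the genome, and no source used here says how fragments with several alignments were treated.

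The H2A variants stood on opposite sides. H2afz, which encodes H2A.Z, a variant found at promoters, had 39.3 FPKM in the nucleolin precipitate and was listed at 0 in the IgG precipitate, a log2 ratio of 5.33. H2afy, which encodes macroH2A1, a variant found on silent chromatin, was listed at 0 in the nucleolin precipitate and had 24.0 FPKM in the IgG precipitate, a log2 ratio of -4.65. The H2afy value came from 2 of its 4 transcript rows, at 12.1 and 12.0 FPKM. The other 9 variants, H1f0, H2afb1, H2afb2-ps, H2afb3-ps, H2afj, H2afv, H2afx, H2afy2 and H2afy3, were listed at 0 in both libraries. H2afz lies on chromosome 3 from 137864487 to 137866922, H3f3b on chromosome 11 from 116021961 to 116026039, H3f3a on chromosome 1 from 180802560 to 180813605 and H2afy on chromosome 13 from 56073622 to 56135626.

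Set side by side, 19 of 22 listed replication-dependent genes (86.4%) and 2 of 4 listed variants (50.0%) were at least 2-fold lower in the nucleolin precipitate. Over all genes compared the share was 56.7%. The number of separate fragments behind the first class is small where it could be recovered: 8 of its H3 genes come to 1.02 fragments in the IgG precipitate. For the variants as a class no fragment number was recovered, and only 4 listed genes make up that class. The classes were not shown to differ. When the genes with 1 row and a span under 1000 bases that came to less than 0.9 fragment were left out, an alternative chosen after seeing the data, 7 replication-dependent genes were lower and 1 was higher. Of the 7, only Hist1h1b and Hist1h1d were shown to hold a whole fragment. Hist1h2bc, Hist1h2be, Hist1h2bp, Hist1h2bq and Hist1h2br stayed because their spans are too long for this filter. Centred on the median of all genes, or with 1 fragment given equal worth in both libraries, H3f3b joined H2afz and 2 variants were higher and 2 lower.

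Genes that act on histone messages or histone proteins were described by lists drawn from textbook knowledge. Slbp, the stem-loop binding protein, Lsm10 and Lsm11, the proteins of the U7 particle, Rnu7, its RNA, and Npat, the activator of histone transcription, were listed at 0 in both libraries. Of 22 genes for histone 3′ end processing 6 were compared, 2 higher and 4 lower in the nucleolin precipitate, with a median log2 ratio of -1.24, close to the 37.8% higher, 56.7% lower and median of -1.27 over all genes compared. Snrpe and Snrpf, proteins of the Sm ring that U7 shares with the spliceosome, had 63.5 and 28.4 FPKM in the nucleolin precipitate and were listed at 0 in the IgG precipitate. Snrpb, another Sm protein gene, had 18.5 FPKM in the nucleolin precipitate and 46.0 FPKM in the IgG precipitate. Srrt, which links the RNA cap to 3′ end formation, had 5.95 FPKM in the nucleolin precipitate and 15.1 FPKM in the IgG precipitate. Fip1l1, of the polyadenylation machinery, had 15.4 FPKM in the IgG precipitate only.

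Histone chaperone genes were listed more often in the nucleolin precipitate. Of 22, 10 were compared, 7 higher and 2 lower in the nucleolin precipitate (37.8% and 56.7% of all genes compared), with a median log2 ratio of 2.29, and 9 of the 10 were listed in 1 library only. How many fragments lay behind these values is not known here, and the difference from all genes was not tested. Npm1, a nucleolar chaperone, and Ssrp1, a subunit of the FACT complex, had 41.5 and 19.7 FPKM in the nucleolin precipitate and were listed at 0 in the IgG precipitate. Nap1l4, a nucleosome assembly protein, and Anp32e, a chaperone of H2A.Z, were listed at 0 in the nucleolin precipitate and had 20.3 and 15.7 FPKM in the IgG precipitate. Ncl itself had 6.14 FPKM in the nucleolin precipitate and 5.25 FPKM in the IgG precipitate.

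Genes of S phase and division, when bulk histones are made, were split. Of 26, 7 were compared, 4 higher and 3 lower in the nucleolin precipitate (37.8% and 56.7% of all genes compared), each listed in 1 library only. Pcna, the sliding clamp of DNA polymerase, and Ccna2, cyclin A2, had 16.0 and 6.37 FPKM in the nucleolin precipitate alone. Mcm6, of the replicative helicase, and Cdk2, the S phase kinase, had 31.3 and 20.3 FPKM in the IgG precipitate alone. Of 20 genes for the nuclear exosome and its cofactors 6 were compared, 4 higher and 2 lower in the nucleolin precipitate, against the same shares of 37.8% and 56.7% over all genes. Exosc5, an exosome core subunit, and Rbm7, a targeting cofactor, had 20.6 and 10.4 FPKM in the nucleolin precipitate alone, and Dis3, an exosome nuclease, and Papd5, a poly(A) polymerase of the decay pathway, had 12.0 and 9.84 FPKM in the IgG precipitate alone. Exosc10, the depleted gene, had 6.42 FPKM in the nucleolin precipitate and was listed at 0 in the IgG precipitate, which does not check the depletion, as both libraries came from depleted cells.

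Markers of other cell types moved with the libraries. Of 11 epithelial and gastric markers 10 were listed, all in the IgG precipitate only, and their summed level was 0 FPKM in the nucleolin precipitate and 15500 FPKM in the IgG precipitate; Epcam was listed in neither. Of 12 macrophage markers, 9 were listed, 4 of them in the nucleolin precipitate only and 5 in both, with summed levels of 554 FPKM in the nucleolin precipitate and 649 FPKM in the IgG precipitate. Csf1r and Lyz2 were among those listed at 0 in the IgG precipitate. Of all genes compared, 46.0% were listed in the IgG precipitate only and 37.1% in the nucleolin precipitate only. Of 4 fibroblast markers 2 were listed in the IgG precipitate only, of 3 T cell markers Lck was listed in the nucleolin precipitate only, and no B cell marker was listed. The 19 lower replication-dependent genes, H3f3a and H2afy were listed in the same IgG precipitate that held the epithelial and gastric markers, and the part of these markers in the histone values was not tested.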

How the data were processed

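RNA immunoprecipitated from nuclear extracts of RAW 264.7 cells was sequenced, as 1 library from a nucleolin precipitate and 1 from an IgG precipitate. The authors deposited FPKM per transcript, in 33529 rows and 1 column for each of the precipitates, per the file headers. The submitters' processing notes name FastQC 0.10.0, Trimmomatic 0.32 and build mm10; aligner, quantification tool and strand use were not given in the sources used here. Left out were the 56 rows without a symbol (0.0794% of the FPKM of the nucleolin precipitate and 0.0364% of that of the IgG precipitate), and rows were summed per symbol. Positions and spans come from RefSeq's GRCm38.p6 gene table, which held all 78 histone gene IDs.

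Genes reaching 1 FPKM in a library were compared by log2 ratios with a pseudocount of 1 FPKM, which understates changes of low genes. The worth of 1 fragment was fitted over genes with 1 row and spans of 1000 to 20000 bases. The line had to be a lower edge, with at most 2% of genes between 0.01 and 0.9 times its height; this condition was added after a fit without it chose a higher line in the nucleolin precipitate. The computation was tested on simulated data. Computations used scipy 1.17.1, numpy 2.4.6 and pandas 2.3.3 under Python 3.11.15. Every histone gene at 0.1 FPKM or more in a library is named, and from each other list the 2 highest members of each library and members in both, with macrophage and other cell markers given as counts. A few other genes were named after their values were seen. Members and lists were chosen with earlier results of these data known. Alternatives were the pseudocount, the filter, centring, equal fragment worth, the highest row per symbol, counting identical values once and leaving out genes under 0.9 fragment.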

Additional observations from a re-analysis of the deposited data

How the results depend on the processing

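The counts of 2-fold lower and higher replication-dependent genes, 19 and 2, stayed within 1.5 times under every alternative tried except leaving out genes under 0.9 fragment; identical values counted once gave 17 lower and a 10 FPKM filter 16. Leaving out genes under 0.9 fragment gave 7 lower and 1 higher, with a median of -4.22. That filter reached only genes with 1 row and a span under 1000 bases, so longer genes stayed whatever their fragments. Median log2 ratios moved more than counts, since genes listed at 0 in 1 library depend on the pseudocount. For replication-dependent genes the median was -7.51 with a pseudocount of 0.1 FPKM, -4.29 with the 10 FPKM filter and -2.99 after centring on all genes. For variants it was -3.97 with the 0.1 FPKM pseudocount, -1.06 after centring, -1.67 with 1 fragment of equal worth and -1.86 with the highest row per symbol, and the 1 higher variant became 2 after centring and with equal worth. The log2 ratio of summed FPKM of replication-dependent genes was -2.13 with the 0.1 FPKM pseudocount, -0.85 after centring, -0.78 with equal worth and -2.04 with identical values counted once. For variants it was -1.97, -0.69 and -0.62 in the first 3 of these settings and -1.91 with the highest row. No class median or summed ratio changed sign. Of the 26 listed genes, 24 kept their sign under the 4 alternatives run per gene (pseudocount, centring, equal worth and highest row, added after seeing the data). These 24 were listed at 0 in 1 library, so pseudocount, equal worth and highest row could not change their sign. The 2 genes listed in both libraries changed sign: Hist2h3c1 turned to 0.45 and H3f3b to 1.25 after centring, and to 0.49 and 1.31 with equal worth. No paired analysis was possible because each group has 1 library. At 4 fragments per library over the short intronless histone genes, depth limits every gene-level statement.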
